A study of Mus musculus with 16 samples.

Results

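The nuclear genes that encode the subunits of the oxidative phosphorylation system were examined in mouse knee joint cells before and after injury. The genes were taken by symbol from the table of normalized values: all symbols beginning with Ndufa, Ndufb, Ndufc, Ndufs, Ndufv, Uqcr, Cox4i, Cox5, Cox6, Cox7, Cox8 or Atp5, apart from the Ndufaf assembly factors, together with Sdha, Sdhb, Sdhc and Cyc1. This gave 79 of the 13733 genes listed, of which 34 belong to complex I, 3 to complex II, 8 to complex III, 17 to complex IV and 17 to complex V. Ndufa4 and its paralog Ndufa4l2 were placed in complex IV, where the NDUFA4 protein resides despite its name. Cox7a2l, Ndufab1, Atp5s and Atp5sl carry matching symbols but also or mainly act in respiratory supercomplexes, lipoic acid and fatty acid synthesis, or assembly. Sdhd, Cox7a2, Ndufa11, Ndufa13 and Uqcr11 were not analysed here.

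Bulk RNA-seq was available for 16 libraries, 4 mice in each of 4 groups. WT mice were C57BL/6, and Trem2-/- mice carried a germline knockout of Trem2, a lipid-sensing receptor of macrophages, in all cells and on the same background (C57BL/6J-Trem2em2Adiuj/J). Uninjured joints (D0) were compared with joints taken 7 days (D7) after rupture of the anterior cruciate ligament by a single tibial compression at 10 weeks of age, a model of post-traumatic osteoarthritis. The methods describe male mice and cells freed from cartilage, synovium, synovial fluid, fat pad and fibrous tissue by collagenase, followed by lysis of red cells. The sample labels give an age of 16 weeks and an RNA protocol for homogenized joints, and the single-cell procedure to which the methods refer goes on to sort leukocytes from other cells with magnetic beads, without a statement of which fraction the bulk libraries hold. The deposited values are TMM-scaled read counts expressed relative to library size (CPM), and they resolve into whole reads, between 11567073 and 32867818 per library, so that 3 reads correspond to 0.101 to 0.250 CPM. The lowest value of any subunit gene in any library was 0.396 CPM. Replicates are separate mice by the labels' numbering only, and p-values measure the spread between these libraries.

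Oxidative phosphorylation uses electrons from NADH and succinate to reduce oxygen at the inner mitochondrial membrane. Complex I (NADH dehydrogenase) and complex II (succinate dehydrogenase) pass electrons by way of ubiquinone to complex III (cytochrome bc1), from which cytochrome c carries them to complex IV (cytochrome c oxidase), and the proton gradient built on the way drives complex V (ATP synthase). Most subunits are encoded in the nucleus, while a small set is encoded by mitochondrial DNA, and the nuclear genes are known as housekeeping genes whose promoters often bind NRF1, ETS factors such as GABPA, and YY1. Chondrocytes are known for a low oxygen use, and muscle for a high one. In bulk libraries fewer cells of a type that is rich in mitochondria and less RNA per cell cannot be told apart.

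The promoters of the members were compared with sequence motifs of these regulators, as a description. RefSeq promoter windows on GRCm38.p6, 250 bases before to 50 bases after the annotated start, were matched for 64 of the 79 members and for 27025 genes in all. The palindromic NRF1 core, which is the first capital stretch of the Cox6a1 window below, was found in 4 member windows (6.25%) and in 0.977% of all windows. With the sixth base left free, on both strands, a pattern that includes the exact core, the counts were 14 member windows (21.9%) against 4.78%. The YY1 motif, searched on both strands, was present in 5 member windows (7.81%) against 0.899%, and the ETS motif CCGGAAG in 13 (20.3%) against 9.12%. A match shows only that these letters occur in the window. Windows are printed for genes that stand for the different behaviours described below, namely Ndufb7 (lower at D7 in both genotypes), Cox6a1 (not called in any comparison), Atp5h (lower in both genotypes) and Atp5e (the gene that differed most between genotypes at D7). Capitals mark the motif matches, and CTTCCGG is the ETS motif read on the other strand. The windows lie at chr8:83566508-83566807 on the + strand, chr5:115348909-115349208 on the - strand, chr11:115419870-115420169 on the - strand and chr2:174464052-174464351 on the - strand, in the same order.
Ndufb7: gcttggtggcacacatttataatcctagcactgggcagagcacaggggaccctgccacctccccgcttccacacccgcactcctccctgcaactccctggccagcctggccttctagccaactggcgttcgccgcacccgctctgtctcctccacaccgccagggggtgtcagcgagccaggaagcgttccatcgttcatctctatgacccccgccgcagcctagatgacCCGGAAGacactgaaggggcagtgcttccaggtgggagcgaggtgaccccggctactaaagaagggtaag
Cox6a1: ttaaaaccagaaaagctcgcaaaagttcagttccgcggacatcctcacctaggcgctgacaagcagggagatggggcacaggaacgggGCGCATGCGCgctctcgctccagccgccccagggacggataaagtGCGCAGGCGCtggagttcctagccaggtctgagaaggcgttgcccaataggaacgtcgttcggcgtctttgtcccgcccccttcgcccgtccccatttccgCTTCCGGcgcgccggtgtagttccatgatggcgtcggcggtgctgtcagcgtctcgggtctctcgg
Atp5h: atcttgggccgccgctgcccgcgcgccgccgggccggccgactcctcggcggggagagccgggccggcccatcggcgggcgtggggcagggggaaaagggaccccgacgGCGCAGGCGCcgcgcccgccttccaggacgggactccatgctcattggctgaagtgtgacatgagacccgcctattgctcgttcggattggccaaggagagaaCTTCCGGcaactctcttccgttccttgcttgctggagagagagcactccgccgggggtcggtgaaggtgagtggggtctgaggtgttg
Atp5e: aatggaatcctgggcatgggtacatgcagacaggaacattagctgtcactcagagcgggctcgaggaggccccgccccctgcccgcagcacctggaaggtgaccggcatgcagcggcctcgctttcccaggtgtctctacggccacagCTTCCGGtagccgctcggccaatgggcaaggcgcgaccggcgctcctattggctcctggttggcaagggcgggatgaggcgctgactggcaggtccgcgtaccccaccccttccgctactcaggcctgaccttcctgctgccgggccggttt

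In all libraries the genotype labels were checked with Trem2 itself. Trem2 was at 4.56 ± 1.40 CPM in WT D0, 16.8 ± 5.08 in WT D7, 1.80 ± 0.713 in Trem2-/- D0 and 4.27 ± 0.644 in Trem2-/- D7 (mean ± SD, n = 4 each). At D7 each Trem2-/- mouse was below each WT mouse (log2 fold change -1.72, adjusted p = 0.050, limma). At D0 Trem2 was also called lower in Trem2-/- (log2 fold change -0.98, unadjusted p = 0.0011, adjusted p = 0.9996, limma). The groups overlapped there, with a lowest WT value of 2.51 and a highest Trem2-/- value of 2.68 CPM (exact permutation p = 0.0571), and Trem2 also rose with injury in Trem2-/- (log2 fold change 0.94 ± 0.25, adjusted p = 0.0050, limma). Marker genes of several cell types also moved with injury. All 6 leukocyte markers (Ptprc, Laptm5, Coro1a, Cd52, Cd53, Lcp1) were called lower at D7 in both genotypes, with a summed level of 2678 to 5222 CPM in WT D0, 1514 to 3335 in WT D7, 3322 to 5728 in Trem2-/- D0 and 1197 to 1501 in Trem2-/- D7. All 4 chondrocyte markers (Acan, Col2a1, Comp, Col9a1) were called higher in both, with summed levels of 650 to 11942, 27470 to 70198, 965 to 3758 and 25721 to 39549 CPM in the same order. Of 6 fibroblast markers 5 were called higher in both, with summed levels of 6102 to 49448, 74136 to 114300, 5122 to 10992 and 98005 to 138651 CPM. Of 6 macrophage markers 5 were called higher in WT, and 4 higher and 1 lower in Trem2-/-, with summed levels of 199 to 356, 457 to 619, 273 to 312 and 349 to 410 CPM. All 5 neutrophil markers and all 4 B cell markers were called lower in both. One WT D0 library (mouse 4) stood apart by a fibroblast marker sum of up to 49448 CPM, against a median of 15643 CPM in its group. The part of these shifts in the results below was not tested.

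Genes were compared on the log2(CPM + 1) scale with limma over the 13173 genes that reached 1 CPM in 4 or more libraries, a filter that all 79 members passed. Calls required an unadjusted p under 0.05 and a log2 fold change beyond 0.32 in either direction, and calls with a Benjamini-Hochberg adjusted p under 0.05 over all genes tested are given beside them. Fold changes are on the log2(CPM + 1) scale. Some member counts below come from fits with a library left out or with another fold limit, pseudocount or scaling. They are given without the share of all genes called in the same fit. Such counts describe how the calls depend on the fit and are not a result about the members.

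In injured WT joints the subunit genes of all 5 complexes lay mostly a little below their uninjured level. The 79 members together took 0.495% ± 0.070 of the reads on the listed genes at D0 and 0.347% ± 0.050 at D7. On the CPM scale, which corrects for the share of reads taken by a few abundant genes, their sum was 4455 ± 398 CPM at D0 and 3817 ± 499 CPM at D7. The log2 fold change was negative for 75 of 79 members and had a median of -0.25, against -0.04 over all genes tested. Of the members 28 were called (35.4%, where the background over all genes was 37.4%), 26 lower (background 18.2%) and 2 higher (background 19.3%). In limma 22 members had an adjusted p under 0.05 over all genes (background 28.5%). The groups did not overlap for 13 members, 11 lower and 2 higher (background 22.2%, 9.34% and 12.9%). The share of members called was near the background, and the share called lower was above it. The count of called members was 16 with the trends in GC content and transcript length removed and 72 with scaling to total reads on the listed genes, both chosen after seeing the data. The share of all genes called in these fits is not given here, so neither count is a result about the members.

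**Figure D1:**
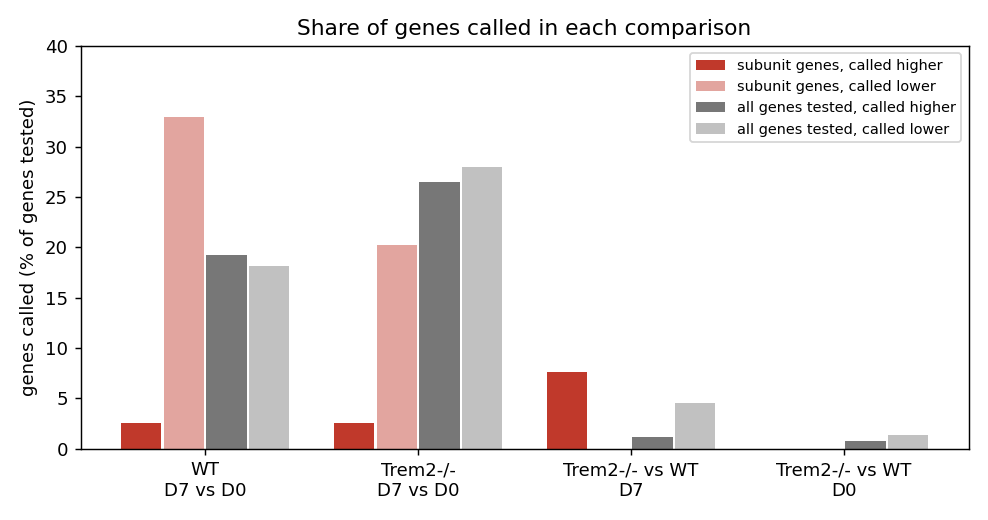
Share of genes called in each comparison (vertical axis, % of genes tested; bars start at 0), for the 79 subunit genes (red) and all 13173 genes tested (grey), in the higher (dark) and lower (light) direction. Subunit genes were called lower more often than higher after injury in both genotypes, and only higher between Trem2-/- and WT at D7, where 6 of 79 were called. Their share called lower was above that of all genes in WT and below it in Trem2-/-.

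The complexes differed little in the size of the shift. Median log2 fold changes in WT were -0.22 for complex I, -0.21 for complex II, -0.31 for complex III, -0.33 for complex IV and -0.25 for complex V. Called were 10 of 34 members of complex I, 0 of 3 of complex II, 4 of 8 of complex III, 9 of 17 of complex IV and 5 of 17 of complex V. The mice of the WT D7 group were spread widely, however. The mean deviation of the members from their 16-library mean was -0.29, 0.05, -0.10 and -0.33 (log2) in WT D7 mice 1 to 4, and 0.03, 0.09, 0.24 and -0.07 in WT D0 mice 1 to 4, so that WT D7 mouse 2 lay above 2 of the uninjured mice. The number of called members was 45 without WT D7 mouse 2, 18 without WT D7 mouse 4 and 17 without WT D0 mouse 3, and it was 38 without WT D0 mouse 4, the library with high fibroblast markers. Shares of all genes called in these fits are not given here.

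In complex I all 10 called members were accessory subunits, which surround the catalytic core. Ndufb7, an accessory subunit on the intermembrane side, is a gene of chromosome 8 (83566671 to 83571626, + strand, GRCm38). It measured 28.6, 42.6, 41.9 and 30.7 CPM in the 4 WT D0 mice and 19.1, 26.1, 25.3 and 16.9 CPM in the WT D7 mice. Each injured mouse was below each uninjured mouse, with a log2 fold change of -0.69 ± 0.16 (SE; limma, adjusted p = 0.0069). Ndufa3, a small accessory membrane subunit, fell from 20.1 ± 3.36 to 12.98 ± 2.39 CPM (log2 fold change -0.60, adjusted p = 0.011, limma). Ndufb8, an accessory subunit much used as a marker of assembled complex I, fell from 44.6 ± 4.10 to 31.4 ± 6.33 CPM (-0.51, adjusted p = 0.0083, limma). Ndufs6, an accessory subunit close to the iron-sulfur clusters of the matrix arm, fell from 18.1 ± 2.96 to 12.9 ± 3.30 CPM (-0.48, adjusted p = 0.033, limma), although 1 injured mouse overlapped with the uninjured range. Core subunits were not called, among them Ndufs1, which holds iron-sulfur clusters, at 49.3 ± 6.09 and 47.4 ± 2.27 CPM, and Ndufv1, the NADH-binding flavoprotein, at 52.6 ± 5.58 and 46.5 ± 9.16 CPM. Some core subunits missed only the fold limit of 0.322. These were Ndufs7 (log2 fold change -0.321, unadjusted p = 0.043, limma) and Ndufv2 (-0.293, unadjusted p = 0.038, limma). The highest fold change of the complex was that of Ndufa8, at 1.63 ± 0.640 and 1.98 ± 0.188 CPM (log2 fold change 0.22, adjusted p = 0.55, limma).

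Complexes II and III behaved alike in direction. Sdha, the flavoprotein of succinate dehydrogenase, measured 131, 151, 148 and 113 CPM in WT D0 and 107, 123, 112 and 98.8 CPM in WT D7. The groups overlapped, and the log2 fold change of -0.29 ± 0.10 passed the adjusted p (0.038, limma) but not the fold limit. The iron-sulfur subunit Sdhb (-0.21) and the membrane anchor Sdhc (-0.14) were not called. In complex III the Rieske iron-sulfur protein gene Uqcrfs1 fell from 64.8 ± 9.34 to 46.7 ± 8.25 CPM with no overlap between mice (log2 fold change -0.47, adjusted p = 0.017, limma). Uqcr10, Uqcrh and Uqcrq, which encode small accessory subunits, were called too (-0.38, -0.33 and -0.33). Cytochrome c1 (Cyc1, -0.27), the large core subunits Uqcrc1 (-0.24) and Uqcrc2 (-0.28) and the quinone-binding Uqcrb (-0.15) were not.

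In complex IV the 2 genes that rose were the 2 alternative isoforms known for their response to low oxygen. Ndufa4l2, the paralog of Ndufa4, lies on chromosome 10 (127514967 to 127517154, + strand). It measured 61.4, 14.5, 26.8 and 61.0 CPM in WT D0 and 106, 87.7, 135 and 133 CPM in WT D7. Each injured mouse was above each uninjured mouse, and the log2 fold change was 1.67 ± 0.37 (adjusted p = 0.0052, limma). Cox4i2, the alternative form of subunit 4, lies on chromosome 2 (152754173 to 152765037, + strand). It measured 9.32, 3.97, 7.02 and 9.42 CPM in WT D0 and 14.6, 10.3, 16.8 and 15.9 CPM in WT D7, again without overlap (log2 fold change 0.90 ± 0.26, adjusted p = 0.021, limma). The common forms were called lower. Ndufa4 fell from 43.4 ± 4.69 to 30.6 ± 4.94 CPM (-0.50, adjusted p = 0.009, limma), and Cox4i1, the common form of subunit 4, from 159 ± 13.4 to 127 ± 23.4 CPM (-0.33, adjusted p = 0.040, limma). The call of Cox4i1 was lost in 8 of 30 alternative fits, among them edgeR, DESeq2 and those without WT D0 mouse 3, WT D7 mouse 1 or WT D7 mouse 4, and that of Ndufa4 in 1, with the GC content and length trends removed. Divided by transcript length, Ndufa4l2 made up 30.2% ± 14.8 of the Ndufa4l2 and Ndufa4 signal in WT D0 (14.2% to 44.3%) and 64.6% ± 7.39 in WT D7 (54.7% to 72.5%). Cox4i2 made up 4.61% ± 1.75 and 10.6% ± 2.95 of the Cox4i pair. Both isoforms are also known from pericytes and other mural cells. Of 6 pericyte markers (Rgs5, Higd1b, Notch3, Abcc9, Kcnj8, Cspg4), 4 were called higher at D7 in WT and 3 in Trem2-/-, with summed levels of 297 to 774 CPM in WT D0, 976 to 1419 in WT D7, 308 to 737 in Trem2-/- D0 and 999 to 1166 in Trem2-/- D7, and none was at 0 in any library. The part of these cells in the rise of both isoforms was not tested.

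**Figure D2:**
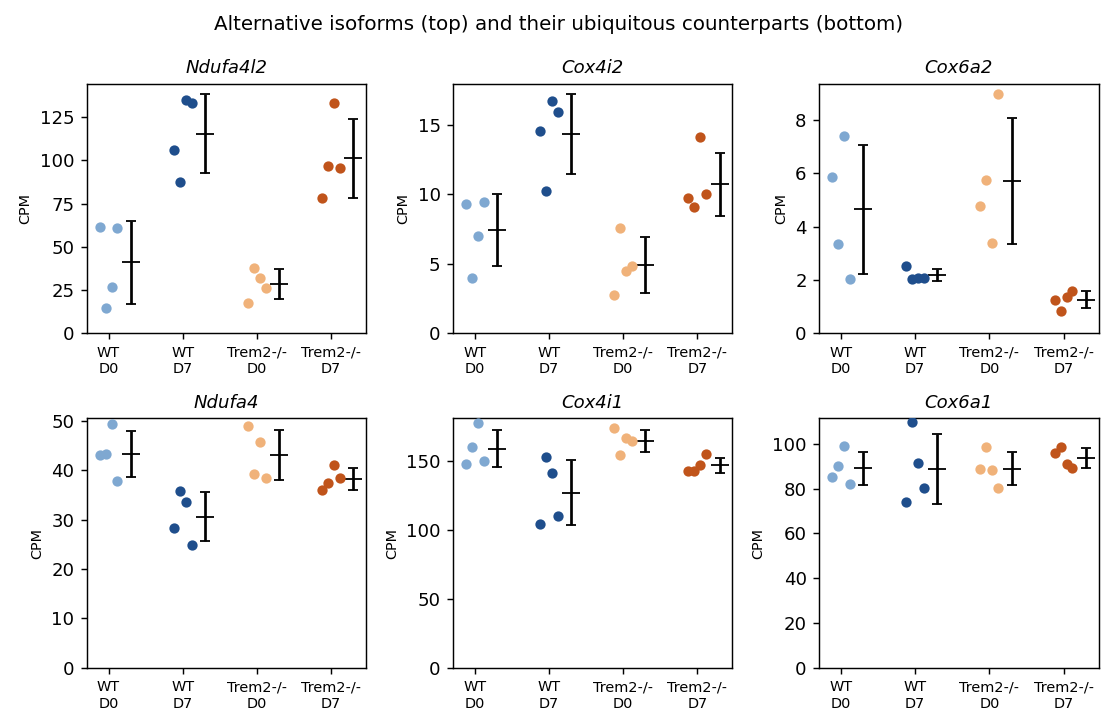
Level in every mouse (points, CPM; axes start at 0) with the mean ± SD of 4 mice beside them (black), for Ndufa4l2, Cox4i2 and Cox6a2 (top) and their common counterparts Ndufa4, Cox4i1 and Cox6a1 (bottom). Ndufa4l2 was between 87.7 and 135 CPM in the WT D7 mice and between 14.5 and 61.4 CPM in the WT D0 mice, while Cox6a1 stayed near 89 CPM in both.

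Other subunits of cytochrome c oxidase fell. Cox5a and Cox5b, nuclear subunits of the matrix side, went from 61.5 ± 10.4 to 46.1 ± 9.62 CPM and from 69.9 ± 10.5 to 52.0 ± 9.79 CPM (log2 fold change -0.42 for each, adjusted p = 0.035 and 0.033, limma). Cox7a2l, a factor of the supercomplexes with complex III, fell by 0.51 on the log2 scale and Cox8a, the common form of subunit 8, by 0.43. The striated muscle isoforms were low. Cox6a2, the muscle form of subunit 6a on chromosome 7 (128205435 to 128206387, - strand), measured 5.86, 3.35, 7.39 and 2.02 CPM in WT D0 and 2.51, 2.04, 2.07 and 2.08 CPM in WT D7. It had the lowest log2 fold change of all members (-0.73 ± 0.28, adjusted p = 0.064, limma), the groups overlapped, and the call was lost without WT D0 mouse 1 or mouse 3. Cox8b, at 0.436 to 3.46 CPM in WT D0 and 0.396 to 0.832 CPM in WT D7, Cox7a1 (-0.33) and Cox6b2 (-0.23), an isoform best known from testis, were not called. Cox6a1, the common form of subunit 6a, was at 88.9 ± 7.34 and 88.8 ± 15.6 CPM, and Cox6b1 at 53.8 ± 7.67 and 46.7 ± 9.31 CPM. Of 10 skeletal muscle markers 3 were called lower in WT and 8 in Trem2-/-, with summed levels of 217 to 842 CPM in WT D0, 159.8 to 391.6 in WT D7, 380 to 1053 in Trem2-/- D0 and 178 to 269 in Trem2-/- D7; their part in the fall of the muscle isoforms was not tested.

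In complex V the called members included some parts of the stalks of ATP synthase, while the stalk subunits Atp5d (-0.08), Atp5j (-0.18) and Atp5o (-0.25) were not called. Atp5e, the epsilon subunit of the central stalk, fell from 40.6 ± 3.66 to 29.0 ± 7.59 CPM (log2 fold change -0.50, adjusted p = 0.020, limma), and Atp5c1, the gamma subunit, from 120.4 ± 12.5 to 95.2 ± 13.95 CPM (-0.34, adjusted p = 0.037, limma). Atp5h and Atp5f1, subunits d and b of the peripheral stalk, fell by 0.48 and 0.36, and Atp5k, a membrane subunit, by 0.39 on the log2 scale. The catalytic subunits were not called. Atp5b, the beta subunit and the member with the highest CPM, was at 522, 613, 609 and 543 CPM in WT D0 and 455, 594, 521 and 470 CPM in WT D7. Its groups overlapped (log2 fold change -0.17, adjusted p = 0.24, limma). Atp5a1, the alpha subunit, was at 412 ± 43.6 and 364 ± 45.2 CPM (-0.18). The 3 genes for the membrane ring, Atp5g1, Atp5g2 and Atp5g3, were not called (-0.25, -0.09 and -0.19), and the highest value of the complex was that of Atp5d (-0.08).

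In Trem2-/- joints the subunit genes also lay below their uninjured level, while more of all genes were called than in WT. Members took 0.507% ± 0.019 of the reads on the listed genes at D0 and 0.376% ± 0.015 at D7, and their summed level was 4587 ± 177 and 4164 ± 71.0 CPM. The log2 fold change was negative for 62 of 79 members, with a median of -0.18 (all genes -0.04). Of the members 18 were called (22.8%, background 54.5%), 16 lower (background 27.9%) and 2 higher (background 26.5%), and 18 members had an adjusted p under 0.05 (background 53.2%). Unlike in WT, the share called lower was below the background. The groups did not overlap for 23 members, 20 lower and 3 higher (background 52.4%, 26.3% and 26.1%). The median size of the log2 fold change, without its sign, was 0.19 for members and 0.44 for all genes in Trem2-/-, and 0.28 and 0.30 in WT. Called were 8 members of complex I, 1 of complex II, 1 of complex III, 6 of complex IV and 2 of complex V.

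The members at the extremes were those of the WT comparison. Ndufa4l2 measured 17.5, 37.5, 31.9 and 26.3 CPM in Trem2-/- D0 and 78.3, 96.9, 133 and 95.8 CPM in Trem2-/- D7, with no overlap (log2 fold change 1.83 ± 0.37, adjusted p = 8e-04, limma). Cox4i2 rose from 4.92 ± 2.00 to 10.7 ± 2.28 CPM (1.03, adjusted p = 0.0044, limma). Per transcript length, Ndufa4l2 made up 24.4% ± 7.03 and 56.1% ± 4.07 of its pair and Cox4i2 2.99% ± 1.32 and 6.94% ± 1.34. The muscle isoform Cox6a2 measured 4.77, 5.75, 3.40 and 8.96 CPM in Trem2-/- D0 and 1.24, 0.827, 1.34 and 1.58 CPM in Trem2-/- D7. Its log2 fold change of -1.53 ± 0.28 was the lowest of the members (adjusted p = 0.00043, limma), and per length its share of the Cox6a pair went from 5.18% ± 2.36 to 1.12% ± 0.322. Cox8b, another muscle isoform, fell by 0.88 on the log2 scale with overlapping groups (adjusted p = 0.035, limma), and this call was lost without Trem2-/- D0 mouse 2 or mouse 4. All 5 slow muscle markers were called lower in Trem2-/- and 0 of 5 in WT, with summed levels of 19.7 to 48.8 CPM in Trem2-/- D0, 4.50 to 12.1 in Trem2-/- D7, 7.22 to 40.8 in WT D0 and 12.3 to 26.2 in WT D7.

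Ndufb7 went from 40.7 ± 5.67 to 21.8 ± 1.68 CPM in Trem2-/- (log2 fold change -0.86 ± 0.16, adjusted p = 0.00045, limma), Ndufa3 from 22.5 ± 3.87 to 13.9 ± 0.849 CPM (-0.65, adjusted p = 0.0025, limma) and Sdha from 140 ± 5.57 to 108 ± 3.45 CPM (-0.37, adjusted p = 0.0057, limma), each with no overlap between mice. Uqcrfs1 (-0.37) and Atp5h (-0.42) were called as well and were the lowest of their complexes. At the other end of each complex were Ndufs5 (0.11), Sdhc (-0.10), Uqcrb (0.00) and Atp5s (0.16), none of them called. Ndufs7 (-0.43) and Ndufv2 (-0.33), core subunits with iron-sulfur clusters, were called. Among other catalytic genes, Ndufs1 (-0.12), Ndufv1 (-0.20), Cyc1 (-0.19), Atp5a1 (-0.07) and Atp5b (-0.07) were not called.

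The injury effect had the same sign in both genotypes for 64 of 79 members (81.0%, where it was 88.5% over all genes), and it was higher in Trem2-/- than in WT, which for most members means a smaller fall, for 59. Over all genes it was higher in Trem2-/- for 6687 of 13173. The median difference of the members was 0.08 on the log2 scale (all genes 0.01), and it ran from 0.02 to 0.16 as single libraries were left out. The 14 members called in both were Atp5f1, Atp5h, Cox4i2, Cox5a, Cox5b, Cox6a2, Ndufa3, Ndufa4l2, Ndufb3, Ndufb7, Ndufb8, Ndufb9, Ndufs4 and Uqcrfs1, all in the same direction, which is 50% of those called in WT and 77.8% of those called in Trem2-/-. Over all genes the calls shared in the same direction were 91.4% of those in WT and 62.9% of those in Trem2-/-. Cox8b, Ndufs7, Ndufv2 and Sdha were called in Trem2-/- but not in WT. Across the 79 genes, which are not independent, Pearson's r of the log2 fold changes was 0.884 (0.939 over all genes), and without Ndufa4l2, Cox4i2 and Cox6a2 it was 0.721 over the other 76. The WT and Trem2-/- groups hold different mice, so their fold changes share no library.

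**Figure D3:**
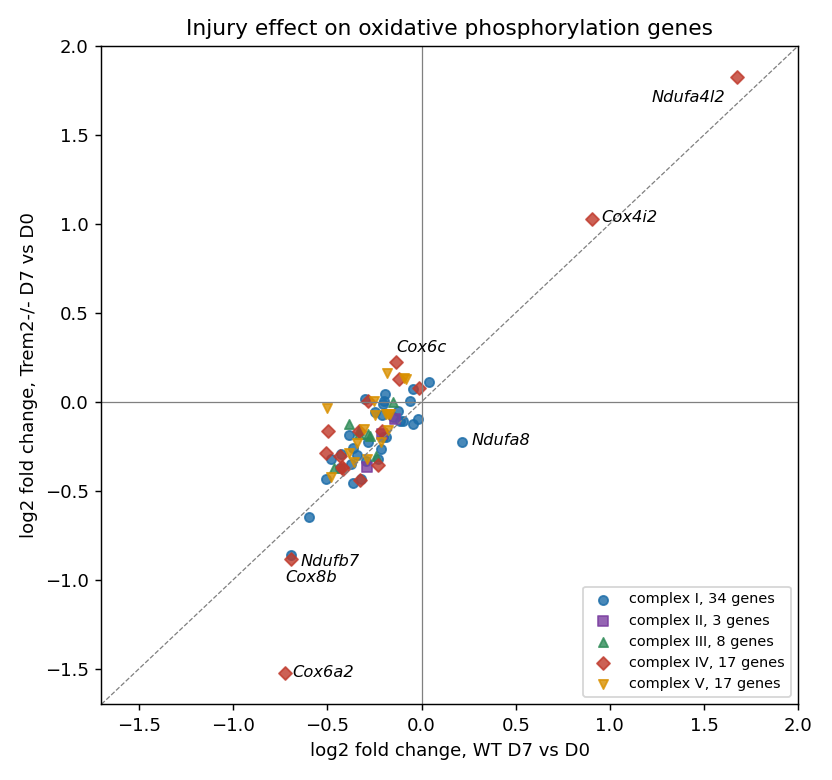
Log2 fold change at D7 against D0 in WT mice (horizontal axis) and Trem2-/- mice (vertical axis) for the 79 subunit genes, each a point coloured and shaped by complex; the dashed line marks equal change. Most points lie in the lower left part close to 0, with Ndufa4l2 and Cox4i2 at the upper right and Cox6a2, Cox8b and Ndufb7 at the lower left.

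Between injured joints of the genotypes, members lay slightly higher in Trem2-/- mice, and few were called. The log2 fold change of Trem2-/- against WT at D7 was positive for 69 of 79 members, which are not independent, with a median of 0.15 (all genes 0.01). The groups overlapped in the mean deviation of the members. It was 0.05 in WT D7 mouse 2, above the Trem2-/- D7 mice (-0.08 to 0.00), and -0.29 and -0.33 in WT D7 mice 1 and 4. Of the members 6 were called, all higher (7.59%, background 5.72%; 1.18% higher and 4.53% lower), and 0 members had an adjusted p under 0.05 in limma, as for all genes. Unadjusted, 11 members and 958 of all genes had p under 0.05. The groups did not overlap for 7 members, 6 higher and 1 lower (background 8.33%, 3.55% and 4.78%).

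Atp5e, a gene of chromosome 2 (174461072 to 174464105, - strand), measured 22.2, 38.1, 32.4 and 23.3 CPM in WT D7 and 41.0, 38.7, 43.5 and 43.1 CPM in Trem2-/- D7. Each Trem2-/- mouse was above each WT mouse, the closest pair by less than 1 CPM, and the log2 fold change was 0.54 ± 0.14 (unadjusted p = 0.0020, adjusted p = 0.45, limma). Cox6c, an accessory subunit of cytochrome c oxidase on chromosome 15 (35925886 to 35938246, - strand), measured 58.6, 72.9, 67.2 and 53.2 CPM in WT D7 and 84.4, 80.8, 78.9 and 81.9 CPM in Trem2-/- D7, without overlap (0.38 ± 0.10, unadjusted p = 0.0020, adjusted p = 0.45, limma). Ndufa4 was at 30.6 ± 4.94 and 38.3 ± 2.15 CPM, also without overlap (0.32, unadjusted p = 0.017, limma). The groups overlapped for Uqcr10 (0.41), a small subunit of complex III, and for Ndufb2 (0.43) and Ndufc1 (0.39), accessory subunits of the membrane arm of complex I. Of these 6 calls only that of Atp5e held in every alternative fit under the same call rule, and it too was lost with a fold limit of 1.5 or with the adjusted p. With 4 mice against 4, an exact permutation test cannot give less than p = 0.0286, the value that Atp5e, Cox6c and Ndufa4 each reached.

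Among the genes without a call, Uqcrh, Cox7b and Cox7c were higher in every Trem2-/- D7 mouse than in every WT D7 mouse (log2 fold change 0.30, 0.27 and 0.24), and Cox6a2 was lower in every one (-0.50, unadjusted p = 0.093, limma). The lowest values of the other complexes were those of Ndufa8 (-0.24), Sdha (-0.02), Uqcrc1 (0.06) and Atp5sl (-0.02), and Sdhb was the highest of complex II (0.12). The isoforms Ndufa4l2 (-0.19) and Cox4i2 (-0.39) were not called. The count of called members depended on the WT D7 mice. It was 14 without WT D7 mouse 2, the WT mouse with the highest member level, and 2 without mouse 1 or without mouse 4. Shares of all genes called in these fits are not given here. Of 6 leukocyte markers 5 were called lower in Trem2-/- at D7, of 6 macrophage markers 3 and of 4 B cell markers 4; their part in the difference was not tested.

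**Figure D4:**
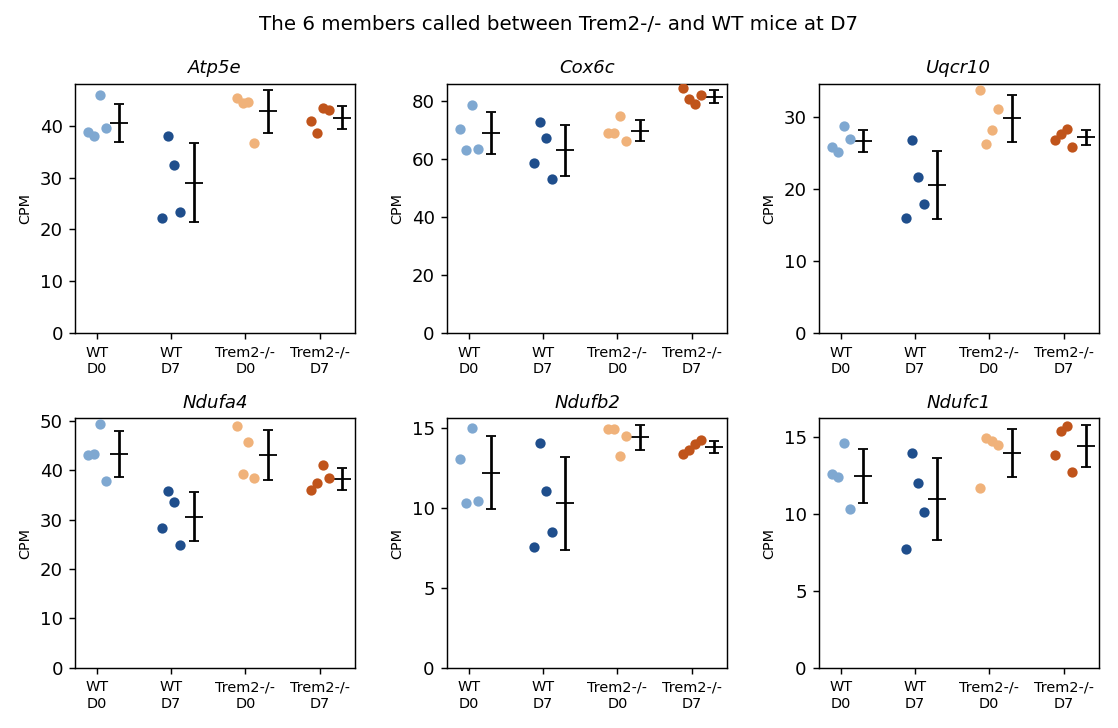
Level in every mouse (points, CPM; axes start at 0) with the mean ± SD of 4 mice (black) for the 6 members that passed the call rule between the genotypes in injured joints. The Trem2-/- D7 mice sit close together, for Atp5e between 38.7 and 43.5 CPM, whereas the WT D7 mice range from 22.2 to 38.1 CPM.

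In uninjured joints 0 of 79 members were called between the genotypes (background 2.15%; 0.782% higher and 1.37% lower), for 0 did the groups not overlap (background 0.979%), 0 had an unadjusted p under 0.05 in limma, and edgeR and DESeq2 on the recovered reads called 0 too. The log2 fold change was positive for 63 members, with a median of 0.07 (all genes 0.00). Values ran from -0.51 for Cox4i2, at 7.43 ± 2.56 CPM in WT and 4.92 ± 2.00 CPM in Trem2-/-, to 0.32 for Cox8b, at 1.86 ± 1.44 and 2.42 ± 1.29 CPM. In the other complexes they ran from -0.03 (Ndufc2) to 0.24 (Ndufb2), from 0.03 (Sdhc) to 0.09 (Sdhb), from 0.00 (Uqcrc2) to 0.15 (Uqcr10) and from -0.16 (Atp5s) to 0.16 (Atp5j2). Calls appeared only without WT D0 mouse 2 (2 members) or without Trem2-/- D0 mouse 2 (1 member), all lower.

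The difference of the injury effects between the genotypes was tested directly with an interaction term. Of the 79 members 2 were called (2.53%, background 7.79%; 2.77% higher and 5.02% lower), both with a smaller fall or a rise in Trem2-/-. Atp5e fell in WT and was at 42.8 ± 4.09 and 41.6 ± 2.22 CPM in Trem2-/- D0 and D7 (interaction 0.46 ± 0.20 on the log2 scale, unadjusted p = 0.038, adjusted p = 0.60, limma). Cox6c was at 69.0 ± 7.32 and 63.0 ± 8.77 CPM in WT and at 69.8 ± 3.59 and 81.5 ± 2.31 CPM in Trem2-/- (0.36 ± 0.14, unadjusted p = 0.026, adjusted p = 0.58, limma). The lowest interaction was that of Cox6a2 (-0.80 ± 0.40, unadjusted p = 0.063, limma). The others at the ends of their complexes were Ndufa8 (-0.44) and Ndufc2 (0.32), Sdha (-0.08) and Sdhc (0.04), Uqcrc1 (-0.06) and Uqcr10 (0.26), and Atp5sl (-0.03). The count ranged from 0 without WT D7 mouse 4 to 6 without WT D7 mouse 2, and was 4 without Trem2-/- D0 mouse 1. It was 1 without WT D0 mouse 3, WT D7 mouse 1, Trem2-/- D0 mouse 4 or Trem2-/- D7 mouse 1, 3 or 4.

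Within groups, members moved together from mouse to mouse. After removing the group means, the median Pearson's r over the 3081 pairs of members was 0.548 across the 16 libraries, which share depth and composition within a mouse, and 65 of 79 members had r above 0.5 with the mean of the others. The same values were not computed over all genes, so whether this co-variation is particular to the members was not tested. Sdhb (0.96), Ndufs6 (0.94) and Cox5a (0.94) followed that mean most closely, whereas Ndufa4l2 (-0.41), Cox7a1 (-0.38) and Cox4i2 (-0.36) ran against it. The mean deviation of the members was 0.09 to 0.18 in the Trem2-/- D0 mice and -0.08 to 0.00 in the Trem2-/- D7 mice, without overlap, and these ranges were narrower than those of the WT groups.

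**Figure D5:**
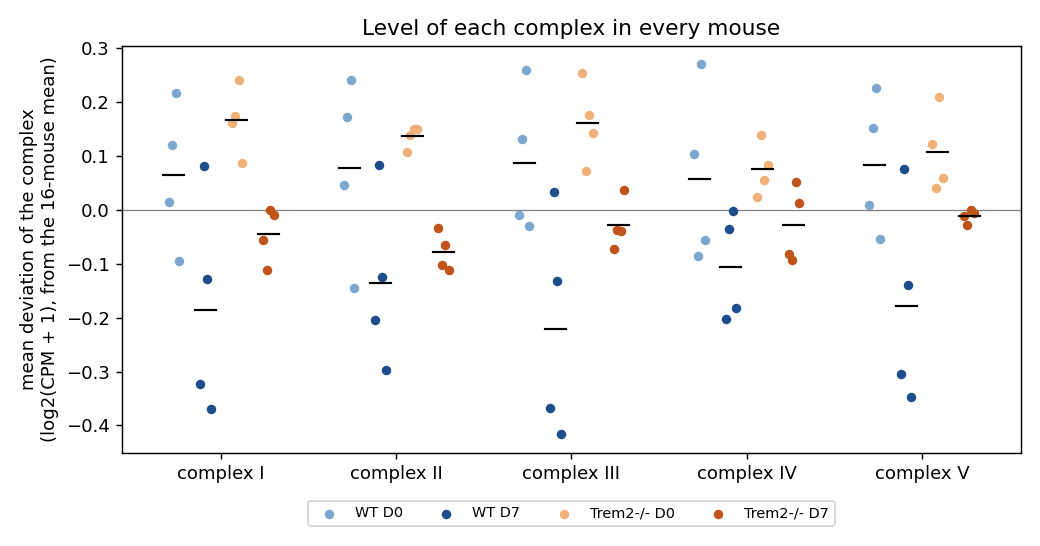
Mean deviation of the members of each complex from their mean over the 16 mice (vertical axis, log2(CPM + 1)) in every mouse (points, coloured by group), with the group mean as a black line. The WT D7 mice are spread from -0.42 to 0.03 in complex III while the Trem2-/- D7 mice lie between -0.07 and 0.04.

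Other genes of mitochondrial respiration were followed as lists, beside a background of 19.3% of all genes called higher and 18.2% lower in WT, and of 26.5% and 27.9% in Trem2-/-. Of the 13 mitochondrially encoded subunits only mt-Nd6, a complex I subunit, was analysed; it was at 4850 ± 1900 and 2554 ± 1006 CPM in WT (log2 fold change -0.89, adjusted p = 0.15, limma) and at 5492 ± 4038 and 1567 ± 396 CPM in Trem2-/- (-1.60, adjusted p = 0.0084, limma). Of 41 assembly factors 2 were called higher and 7 lower at D7 in WT, and 5 higher and 5 lower in Trem2-/-. Of 74 mitochondrial ribosomal protein genes 0 were called higher and 14 lower in WT (median log2 fold change -0.18), and 3 higher and 12 lower in Trem2-/- (median -0.11). Of 17 enzymes of the tricarboxylic acid cycle and pyruvate dehydrogenase, which feed electrons to the chain, 0 and 1 were called higher in WT and Trem2-/-, and 1 and 2 lower. Of 17 electron carriers and regulators of mitochondrial biogenesis 0 and 1 were called higher, and 5 and 4 lower. Among these, Cycs, the electron carrier cytochrome c, fell by 0.35 in WT and by 0.38 in Trem2-/-, and Nrf1, the transcription factor whose motif is described above, fell by 0.33 and by 0.41 on the log2 scale (adjusted p = 0.022 and 0.0024, limma). GABPA and YY1, the factors of the other motifs, are not described here by value, and a link between Nrf1 and the members was not tested. Ppargc1a, a coactivator of mitochondrial biogenesis, was called lower in WT (2.69 ± 0.589 to 1.59 ± 0.460 CPM) and was at 2.16 ± 0.625 and 2.01 ± 0.171 CPM in Trem2-/-.

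Of the members, 44 of the 78 with a gene model shared no stretch of 75 bases with another gene, and none shared more than 35.8% (Atp5g2, with processed copies), so that reads of 14 members with at least 10% shared sequence may be less certain. Exons of 24 members overlapped a gene on the opposite strand, among them Cox6c with Vps13b, Cox6a2 with Itgad and Ndufa4l2 with Shmt2, and no source says whether reads were counted by strand.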

How the data were processed

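The authors converted base calls with bcl2fastq, aligned reads to mm10 (GRCm38) with STAR, counted reads per gene with featureCounts and normalized with edgeR's TMM method; versions, annotation and strand setting are not given in the sources used here. The deposited signal values are CPM on TMM-scaled library sizes, and 100% were whole multiples (within 0.01 read) of the value of 1 read, from which reads were recovered. Of 13734 rows, a repeat of Fcgr1 with the same values was dropped. The 3-read limits cover counting error only.

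From the deposited values the 4 groups were fitted as one factor with limma 3.58.1 (lmFit, eBayes with trend, R 4.3.3) on log2(value + 1) for genes reaching 1 CPM in 4 or more of 16 libraries. The call rule (p under 0.05, fold over 1.25) is that of the study's methods. Exact two-sided permutation tests were run over mice for single genes. edgeR 4.0.16, DESeq2 1.42.0 and voom on the recovered reads, other pseudocounts (0.1, 5), filters, scalings and omission of each library were alternatives. On simulated counts for Trem2-/- vs WT at D7 (13049 genes, 200 changed) the fit called 95% of changed and 2.88% of unchanged genes. The first share covers all changed genes together. The share called at fold changes of the size seen in the members was not tested. The simulation gave every gene the same dispersion and drew genes independently, whereas the members moved together from mouse to mouse. Its shares are therefore not the sensitivity or false call rate of the real comparison. Gene positions and lengths came from GENCODE M21 (78 of 79 members matched; Atp5o had more than one ID), promoters from RefSeq.

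Genes described in full were the isoform pairs, the catalytic subunits and the lowest and highest member of each complex in each comparison. The values of 1 member are not reported here, and counts include it. Members and lists were chosen with earlier results of these data known.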

Additional observations from a re-analysis of the deposited data

Results flagged for a closer look

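In 20 of the members, not all of them printed by mouse above, 80 groups of 4 mice were searched for a single distant mouse with Dixon's limit, and 3 were found where chance gives about 4. Cox6a2 in WT D7 mouse 1 was the highest of its group at 2.51 CPM, the others being at 2.04 to 2.08 CPM, a gap of 0.915 of the range. Atp5e in Trem2-/- D0 mouse 4 was the lowest at 36.7 CPM, the others being at 44.5 to 45.4 CPM (gap 0.89 of the range). Ndufc1 in Trem2-/- D0 mouse 1 was the lowest at 11.7 CPM, the others being at 14.52 to 14.97 CPM (gap 0.862 of the range).

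By the interaction term of limma, 2 members were called for a different injury effect between the genotypes (2.53%, below the background of 7.79%). The log2 fold change in Trem2-/- minus that in WT was 0.464 for Atp5e, which fell in WT (-0.50) and was at -0.04 in Trem2-/-, and 0.355 for Cox6c (-0.13 and 0.22), and neither held after adjustment over all genes. The call of Atp5e was lost in 8 of 29 alternative fits and that of Cox6c in 3.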

How the results depend on the processing

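No named gene's call and no count of members reversed direction under the alternatives run. Of the calls, 13 of 28 in WT, 6 of 18 in Trem2-/-, 1 of 6 between genotypes at D7 and 0 of 2 for the interaction held in every alternative fit under the same call rule. With a fold limit of 1.5, 5 members were called in WT after injury, 6 in Trem2-/-, 0 between genotypes at D7 and 0 for the interaction, and with an adjusted p under 0.05 the last 2 counts were 0 and 0. With a pseudocount of 5, 3 members were called between genotypes at D7. edgeR called 1 member for the interaction.

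Scaling to total reads on the listed genes, chosen after seeing the data, shifted the median log2 fold change of all genes at D7 vs D0 to -0.30 in WT and -0.31 in Trem2-/-, and that of the members to -0.53 and -0.46. The members called were then 72 in WT (70 lower), 60 in Trem2-/- (58 lower) and 1 for the interaction. Members have short transcripts (median 693.5 bases, all genes 2234), and with the trends in GC content and transcript length removed, also chosen after seeing the data, 16 members were called in WT and 8 in Trem2-/-; the cause was not tested. Leaving out one library at a time gave 17 to 45 called members in WT, 15 to 21 in Trem2-/-, 2 to 14 between genotypes at D7, 0 to 2 at D0 and 0 to 6 for the interaction. The shares of all genes called under this scaling, this trend removal and these omissions are not given here. These counts are therefore not a result about the members. Between genotypes at D7 the counts turned on WT D7 mice 1, 2 and 4. The replicate block gave 28, 19, 6, 0 and 2 called members in the same order and moved no count by over 1.5 times. No source says whether replicate numbers pair libraries. Residuals of the 24 same-number pairs correlated with a median r of 0.07 (range -0.51 to 0.41, other pairs -0.01). Most of these pairs join different genotypes, so this median cannot decide whether D0 and D7 are paired within a genotype. Same-number D0 and D7 libraries 1 to 4 correlated at 0.05, 0.20, 0.41 and 0.31 in WT. In Trem2-/- the values were -0.20, -0.12, 0.11 and 0.015. On the recovered reads edgeR called 29 members of 5024 genes in WT after injury, 19 of 7279 in Trem2-/-, 5 of 891 between genotypes at D7 and 0 of 466 at D0.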
